A study of Homo sapiens with 4 samples.

Results

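Neutral lipid lipases release fatty acids from stored or circulating fat, and the genes of 9 such enzymes were followed in U87MG cells silenced for CASP2. The set holds the lysosomal lipase LIPA, the secreted lipases LIPG, LIPC and LPL, the cytosolic lipases PNPLA2, LIPE and MGLL, and the endoplasmic reticulum hydrolases NCEH1 and CES1. On these arrays a gene is read by a probe set, several short probes against its RNA, and a lipase was taken from every probe set for which the array annotation gives that gene symbol alone. By this rule 8 of the 9 lipases had 1 probe set each, among 19158 probe sets with 1 symbol and 32321 in all, and LIPC was not analysed here. LIPA was chosen on its measured difference between silenced and control cells in these same arrays, and the other lipases were chosen by function with results of these arrays known. The differences of all 8 are therefore given as a description. Where the share of probe sets past a threshold is printed, the lipases past it are named to place them on the array, and no p is read as support for them.

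U87MG is a human glioblastoma line in established culture. All cells were grown in serum-containing DMEM and transfected with an RNA oligo for interference, either a control siRNA or a CASP2 siRNA. Each group has 2 arrays, which the sample labels call biological replicates without saying whether they came from separate transfections. SD therefore measures only the spread of a gene between these arrays. SE and p also measure only spread between these arrays, but take it in part from other probe sets. No other line was compared. Total RNA was read on Affymetrix arrays, and the deposited values are log2 values after Robust Multi-Array Average (RMA). A difference of 1 on this scale is a doubling.

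The targeted gene was measured first. CASP2, which encodes the protease caspase-2, had log2 values of 10.74 and 10.69 on the control arrays and of 8.79 and 8.52 on the silenced arrays. The log2 difference was -2.06 (SE 0.13), in the direction that the labels give. Even this gene had an adjusted p of 0.9999 in limma, a linear model that borrows information on spread across probe sets. The spread between the silenced arrays was wider than between the controls, with a standard deviation of the difference between arrays of 0.348 and 0.205. It was 0.238 to 0.290 across the groups. For a single gene, the smallest two-sided p that exact permutation allows with these arrays is 0.333.

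Cells hold neutral lipid as triglyceride and cholesteryl ester. Lipoprotein lipid taken up by endocytosis is hydrolysed in the lysosome by LIPA, the lysosomal acid lipase, and the freed cholesterol leaves through the proteins NPC2 and NPC1. Lipid droplets are instead broken down in the cytosol by a relay in which PNPLA2, the adipose triglyceride lipase, removes the first fatty acid, LIPE, the hormone-sensitive lipase, cleaves diglycerides, and MGLL cleaves monoglycerides. NCEH1 and CES1 are hydrolases of cholesteryl esters and other esters in the endoplasmic reticulum. LPL, LIPG and LIPC are released from cells and act on lipoproteins in the blood, at the vessel wall.

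The promoters of LIPA and LIPG are shown because these lipases had the largest differences of the set. RefSeq (GRCh38.p14) gives LIPA 3 transcription starts on the minus strand of chromosome 10. The 250 bases before the most downstream of them, chr10:89251776-89252025, are printed below from 5′ to 3′, with the GC boxes (GGGCGG on either strand) in capitals. For LIPG the 250 bases before the start given in the same table are chr18:49561807-49562056 on the plus strand.
LIPA: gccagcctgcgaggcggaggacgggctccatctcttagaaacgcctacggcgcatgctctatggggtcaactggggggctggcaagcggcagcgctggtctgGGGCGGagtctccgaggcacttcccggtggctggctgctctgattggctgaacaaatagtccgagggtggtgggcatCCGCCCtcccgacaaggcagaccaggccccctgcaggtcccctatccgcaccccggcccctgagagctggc
LIPG: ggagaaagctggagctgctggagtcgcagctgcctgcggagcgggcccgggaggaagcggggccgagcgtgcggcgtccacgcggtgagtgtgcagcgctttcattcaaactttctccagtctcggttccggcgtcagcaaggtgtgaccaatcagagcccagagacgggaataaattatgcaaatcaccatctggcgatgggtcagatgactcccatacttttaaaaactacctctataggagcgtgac
The LIPA stretch is 67.6% G or C and holds 2 GC boxes, which begin 148 and 71 bases before the start. The LIPG stretch is 57.2% G or C and holds none. GC boxes occur in 42.6% of the 35116 promoters of the table. The hexamer CACGTG, a form of the E-box that reads the same on both strands and is known as a site of the lysosomal regulator TFEB and of the SREBP factors of sterol synthesis, was present in 6.34% of those promoters. It was in none of the 9 promoter entries that cover 6 of the lipases, and TATAAA, which 10.7% of promoters hold, was in none of the 3 LIPA entries. These counts describe the letters in these windows and nothing about binding.

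LIPA, the lysosomal lipase, had log2 values of 9.58 and 9.72 on the control arrays and of 10.41 and 10.27 on the silenced arrays. Both silenced arrays lay above both controls, with 0.55 between the nearest arrays of the groups. The mean was 9.65 ± 0.099 (SD, n = 2) in control cells and 10.34 ± 0.094 (SD, n = 2) in silenced cells, a log2 difference of 0.69 (SE 0.11) or 1.61-fold. Ranked by signed difference among the 19158 probe sets with 1 symbol, LIPA was at position 13. The difference of LIPA exceeded those of the other lipases by 0.28 to 0.80.

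Among the secreted lipases, LIPG encodes endothelial lipase, which prefers the phospholipids of high-density lipoprotein. Its values were 5.03 and 5.11 in control cells and 5.35 and 5.59 in silenced cells, so the groups did not overlap and the nearest arrays were 0.25 apart. The log2 difference was 0.40 (SE 0.12), at position 87 of the same ranking. LPL, the lipase that hydrolyses the triglyceride of circulating lipoproteins, had values of 4.72 and 4.48 against 4.43 and 4.92. The silenced arrays of LPL held both its lowest and its highest value, and the difference of 0.070 (SE 0.20) was smaller than its error.

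The cytosolic relay showed smaller differences than LIPA and LIPG. PNPLA2 had values of 9.51 and 9.57 in control cells and of 9.43 and 9.71 in silenced cells, a difference of 0.031 (SE 0.13), with the groups overlapping. LIPE had values of 6.60 and 6.53 against 6.63 and 6.88, a difference of 0.18 (SE 0.12). Both silenced arrays of LIPE lay above the controls, but the nearest arrays were only 0.023 apart and CASP2 siRNA replicate 1 differed from the control mean by 0.060. MGLL had values of 9.59 and 9.63 against 9.79 and 9.62, a difference of 0.094 (SE 0.11), and one silenced array lay between the controls.

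In the endoplasmic reticulum, NCEH1 had values of 11.62 and 11.52 in control cells and of 11.69 and 11.45 in silenced cells. The silenced arrays lay on either side of the controls and the difference was 0.0049 (SE 0.12). CES1 had values of 6.16 and 5.65 against 5.91 and 5.68, a difference of -0.11 (SE 0.21), with both silenced arrays between the controls. CES1 has a near-identical pseudogene copy in the genome, so its probes may share signal with it and its value is uncertain. The control arrays of CES1 were farther apart from each other than those of any other lipase.

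**Figure D1:**
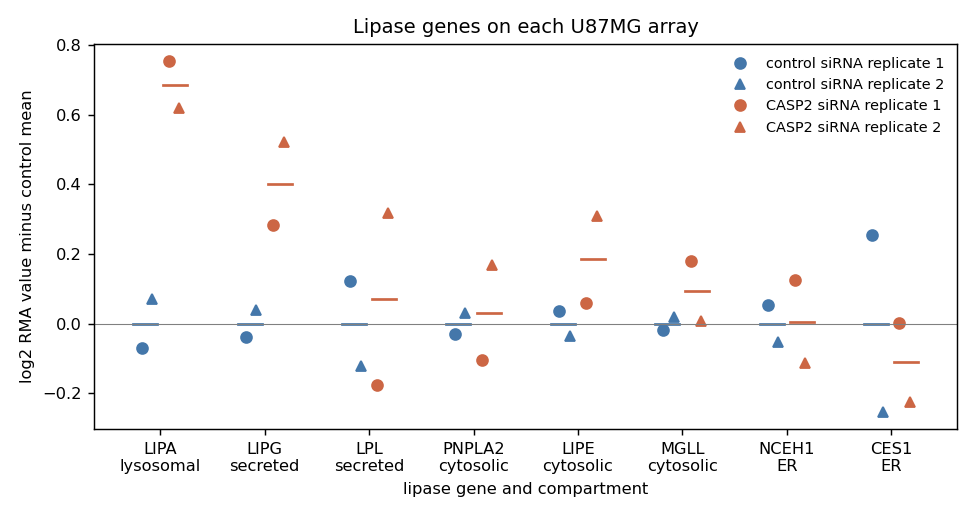
Log2 RMA value of each lipase gene on each of the 4 arrays, minus the mean of the 2 control arrays, by gene and compartment; circles are replicate 1, triangles are replicate 2, and bars are group means. LIPA and LIPG stand at means of 0.69 and 0.40, whereas the silenced arrays of LPL, PNPLA2 and NCEH1 lie on both sides of 0.

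By compartment, the lysosomal lipase differed by 0.69, the measured secreted lipases by 0.070 and 0.40, the 3 cytosolic lipases by 0.031 to 0.18, and the endoplasmic reticulum hydrolases by -0.11 and 0.0049. Both silenced arrays lay above both controls for 3 of the 8 lipases, LIPA, LIPG and LIPE, beside 14.6% of all probe sets with 1 symbol. They lay below for 0 of the 8, beside 16.3% of those probe sets. The difference was above 0 for 7 of the 8, and its median was 0.082, compared with -0.00076 over the 19158 probe sets. Because the set was chosen with this contrast known, nothing is read from these counts.

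Of all 32321 probe sets, 0% reached an adjusted p of 0.05 in limma (0 probe sets, beside 979 at an unadjusted p under 0.05). The methods' t-test, which sets a floor under the standard deviation, likewise gave 0, beside 100 unadjusted. An unadjusted p under 0.05 in limma with the silenced arrays higher was reached by 1.54% of probe sets, LIPA and LIPG among them, and with the silenced arrays lower by 1.49%, with none of the 8 lipases. By the methods' t-test LIPA remained past the unadjusted p and LIPG did not. With limma p kept and the methods' 1.5-fold cut added, the shares were 0.331% higher, including LIPA, and 0.362% lower, with 0 lipases. The methods' t-test with this cut called 35 probe sets higher and 37 lower. Limma fitted on the 19158 probe sets with 1 symbol, from which the lipases come, called 20 higher and 27 lower with this cut. Since LIPA was chosen on this contrast, nothing is read from its place among them.

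The control level of a probe set tells where it lies on the array, which bears on how normalization treats it. Probes differ in brightness, so this position is no measure of the expression of one gene against another. On the control arrays 84.3% of all probe sets lay below LIPA, 83.3% below PNPLA2, 83.9% below MGLL and 96.3% below NCEH1. These 4 lipases were in the brightest of 4 equal bands of level, with LIPE in the next band and 54.3% of probe sets below it. The shares below CES1, LIPG and LPL were 46.2%, 34.7% and 28.0%.

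Markers of other cell types were followed for any change between the groups. Genes of adipocytes, macrophages, endothelial cells and hepatocytes, cells known for high levels of one or other of these lipases, were measured as 12 genes. Their control means were 12.3 for CD68, a lysosomal protein, and 3.65 to 6.71 for the other 11, with none at 0, as RMA values seldom are. Both silenced arrays lay above the controls for 3 of the 12, beside 14.6% of all probe sets with 1 symbol, and below for 1, beside 16.3%, and 0 reached an unadjusted p of 0.05 in limma. Their summed log2 level was 69.1 and 69.4 in control cells and 68.8 and 71.0 in silenced cells, the highest sum being on CASP2 siRNA replicate 2, the array on which LIPG, LPL, PNPLA2 and LIPE were also highest. The part of these genes in the values of the lipases was not tested.

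For the label of the line itself, control means were 13.04 for the mesenchymal gene VIM, 12.95 for CD44 and 12.61 for SPP1. The glial genes GFAP and S100B had 6.53 and 3.74, and the neural progenitor gene NES had 6.52, where the median of an array was 6.18 to 6.28. Without a background level for each probe set these values do not settle whether the glial genes were expressed. Bulk RNA cannot tell fewer cells of a type from less RNA per cell.

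Level also moved with the arrays. Among probe sets with control means of 4.40 to 6.20, the band that holds LIPG, LPL and CES1, the median deviation from the control mean was -0.052 on CASP2 siRNA replicate 1 and 0.10 on replicate 2. LIPG deviated by 0.28 on replicate 1 and by 0.52 on replicate 2, and LPL by -0.18 and 0.32, so both were higher on the array whose band was higher. In the brightest band, which holds LIPA, the medians were 0.017 and -0.055. LIPA deviated by 0.75 and 0.62, PNPLA2 by -0.11 and 0.17, MGLL by 0.18 and 0.0072, and NCEH1 by 0.12 and -0.11. LIPG was 0.37 and LIPA 0.71 higher in silenced cells after a cyclic loess normalization between arrays. The part of this drift in the values of LIPG was not otherwise tested.

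The genes around the lipases were then read from 8 lists, which together hold 87 genes beside the lipases, 79 of them measured. None passed an adjusted p of 0.05 in limma. An unadjusted p under 0.05 was reached by 4 higher and 1 lower, beside the 1.54% and 1.49% of all probe sets. All 5 calls were lost in the methods' t-test, and with the replicate number as a block 2 higher and 0 lower were called. With single arrays left out the counts ran from 0 to 8 higher and from 0 to 2 lower, with 0 of either without control siRNA replicate 2, 1 higher and 0 lower without control siRNA replicate 1, and 8 and 2 without CASP2 siRNA replicate 1. Differences were above 0 for 47 and below 0 for 32, with a median of 0.012. Both silenced arrays were above the controls for 18 genes and below for 11, beside 14.6% and 16.3% of all probe sets with 1 symbol.

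The lysosomal route that serves LIPA held no gene at the unadjusted threshold. Of 13 genes for the delivery of enzymes to lysosomes, the lysosomal membrane, cholesterol exit and lysosomal transcription, 0 were called in either direction. Both silenced arrays lay above the controls for 2 of the 13, beside 14.6% of all probe sets with 1 symbol. These were TFEB and TFE3, with only 0.0062 and 0.026 between the nearest arrays of the groups. The differences ran from -0.16 to 0.16 with a median of 0.012. NPC2 and NPC1, the cholesterol carriers after LIPA, differed by 0.087 (SE 0.10) and -0.0088 (SE 0.093). M6PR and IGF2R, receptors that bring enzymes such as LIPA to the lysosome by their mannose 6-phosphate tag, differed by -0.073 and 0.040. GNPTG and GNPTAB, subunits of the transferase that starts this tag, differed by -0.16 (SE 0.12) and -0.13 (SE 0.12), and TFEB, the transcription factor of lysosomal genes, by 0.16 (SE 0.12). LAMP1 and LAMP2, abundant lysosomal membrane proteins, differed by 0.020 and -0.040.

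LIPA belongs to a family of acid lipases, of which gastric lipase LIPF and the genes LIPJ, LIPK, LIPM and LIPN lie near it on chromosome 10. Of these 5, 1 was higher and 1 lower at an unadjusted p under 0.05 in limma, beside 1.54% and 1.49% of all probe sets. LIPN, an acid lipase of the epidermis, had values of 3.24 and 3.30 in control cells and of 3.85 and 3.50 in silenced cells, a difference of 0.40 (SE 0.15, limma adjusted p = 0.9999). Without CASP2 siRNA replicate 1 the difference of LIPN was 0.23. LIPK, likewise an epidermal gene, had values of 3.62 and 3.71 against 3.41 and 3.42, a difference of -0.25 (SE 0.093, limma adjusted p = 0.9999). Both lay in the lowest band of levels, and LIPF differed by -0.044 and LIPM by 0.026.

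In the family of LIPG and LPL, 6 of 7 other genes were measured. At the unadjusted threshold 1 was higher, beside 1.54% of all probe sets. PNLIPRP2, a pancreatic lipase-related enzyme of galactolipids, had values of 4.62 and 4.58 against 5.05 and 5.08, a difference of 0.47 (SE 0.090, limma adjusted p = 0.9999). The arrays of PNLIPRP2 within each group lay close together. PLA1A, a phospholipase of phosphatidylserine, differed by 0.21 (SE 0.11), and LIPH, which forms lysophosphatidic acid, by -0.19 (SE 0.19).

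Of 14 genes for proteins that fold, anchor or block the secreted lipases, 12 were measured. At the unadjusted threshold 1 gene was higher, beside 1.54% of all probe sets. This was ANGPTL4, an inhibitor of LPL, with values of 8.42 and 8.46 in control cells and of 8.76 and 8.73 in silenced cells, a difference of 0.30 (SE 0.090, limma adjusted p = 0.9999). LMF1, a chaperone that LPL and LIPG need to fold, differed by -0.080 (SE 0.098), SEL1L, a partner of LMF1, by 0.14, and GPIHBP1, the anchor of LPL on capillaries, by 0.075 (SE 0.30). APOA5, an apolipoprotein that favours LPL action, differed by -0.19 (SE 0.10). Of these 12 genes 6 were above 0 and 6 below.

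Among lipid droplet proteins and regulators of lipolysis, 10 of the 12 measured genes had a difference above 0, with a median of 0.087. Of these, FITM1, PLIN1, PLIN2, PLIN4 and CIDEA lay above their control mean only on CASP2 siRNA replicate 2, and FITM2 only on replicate 1. The unadjusted threshold was passed by 1 gene, beside 1.54% of all probe sets with the silenced arrays higher. HILPDA, a small inhibitor of PNPLA2 known to be induced by hypoxia, had values of 8.97 and 8.93 against 9.31 and 9.24, a difference of 0.32 (SE 0.092, limma adjusted p = 0.9999). For both HILPDA and ANGPTL4 the silenced arrays lay above the controls, beside 14.6% of all probe sets with 1 symbol. After loess their differences rose to 0.35 and 0.33, those of LIPN and PNLIPRP2 fell to 0.39 and 0.44, and LIPK differed by -0.27. G0S2, another inhibitor of PNPLA2, differed by 0.089 (SE 0.098), and ABHD5, the co-activator of PNPLA2, by -0.042 (SE 0.13). The droplet coat proteins PLIN2 and PLIN3 differed by 0.011 and 0.023, and FITM1, a protein of droplet formation, by 0.20 (SE 0.17).

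The remaining lists held no gene at the unadjusted threshold. Among 14 other intracellular lipases, 7 were above 0 and 7 below, with PNPLA4, a relative of PNPLA2, at 0.24 (SE 0.13) and ABHD6, another monoglyceride hydrolase, at -0.16 (SE 0.091). DDHD2, a triglyceride hydrolase of the brain, differed by 0.10. Of the enzymes that build the esters these lipases cleave, SOAT1, which esterifies cholesterol, differed by -0.18 (SE 0.10), DGAT1 by -0.048 and DGAT2 by 0.050. The acyltransferases MOGAT3 and MOGAT1 differed by 0.19 and 0.16. Of 13 transcription factors listed for lipid catabolism, which also hold SREBF1 and SREBF2 of lipid synthesis and PPARG of fat storage, 7 were above 0 and 6 below. KLF15, a metabolic regulator, differed by 0.37 with a wide error (SE 0.21), as only CASP2 siRNA replicate 2, at 6.35, stood clear of the other arrays, and the oxysterol receptor NR1H3 differed by -0.16 (SE 0.11).

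**Figure D2:**
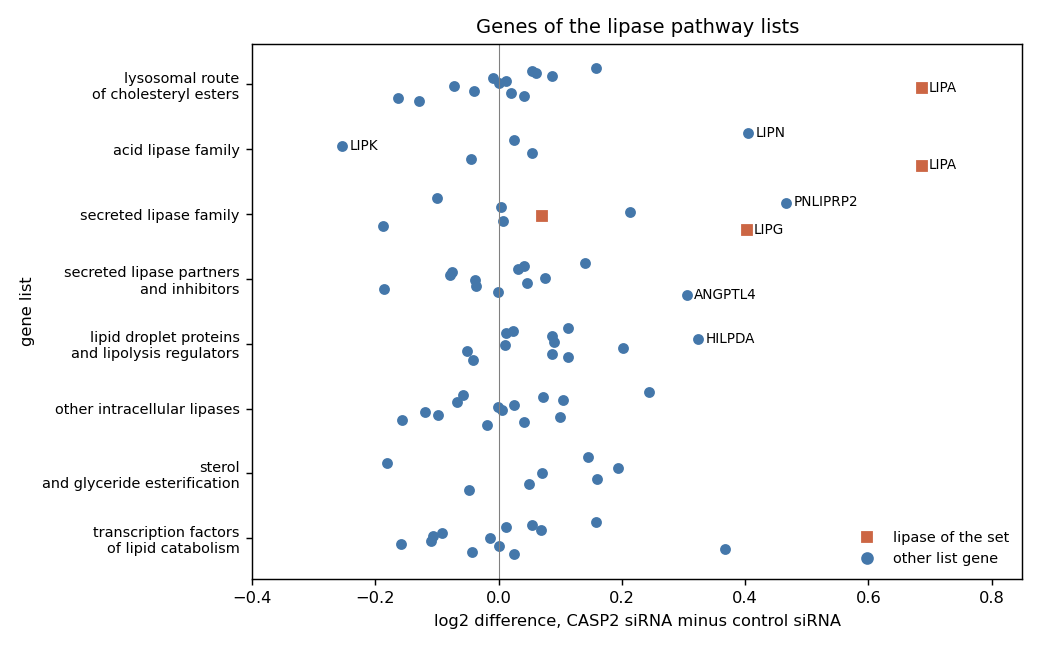
Log2 difference, CASP2 siRNA minus control siRNA, of each measured gene in the 8 lists (circles), with the lipases of the set that belong to a list as squares (LIPA in 2 lists). LIPA at 0.69 lies to the right of every other gene shown, and the 5 labelled circles are the genes at an unadjusted p under 0.05 in limma.

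LIPA lies in a dense stretch of chromosome 10 between CH25H, which encodes cholesterol 25-hydroxylase, and the IFIT genes of the interferon response. In RefSeq the span of LIPA from its most distant start overlaps 5 genes, IFIT2, IFIT3, IFIT1B, IFIT1 and IFIT5. The nearest protein-coding genes with a probe set, 11 on the CH25H side and 7 on the IFIT side, a range chosen after the values of LIPA had been seen, were compared with it. On the CH25H side the differences ran from -0.25 to 0.40, with LIPK and LIPN as the extremes, and CH25H itself differed by -0.014 (SE 0.12). LIPK and LIPN were the 2 of 11 at an unadjusted p under 0.05 in limma, beside 1.54% higher and 1.49% lower of all probe sets. Both lay in the lowest band of levels, and neither passed the unadjusted threshold in the methods' t-test. On the IFIT side the differences ran from -0.13 to 0.26 and 0 of the 7 reached an unadjusted p of 0.05 in limma.

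The IFIT genes varied between the silenced arrays. IFIT2 had values of 4.91 and 5.12 in control cells and of 5.37 and 4.67 in silenced cells, and IFIT3 had 6.47 and 6.18 against 6.74 and 6.10. CASP2 siRNA replicate 1 was above replicate 2 for 4 of the 5 IFIT genes. LIPA had the same order, at 10.41 and 10.27, as had the median deviation in its band of level, at 0.017 and -0.055. The share of all probe sets in this order was not computed, so nothing is read from it. IFIT1 had the largest difference of the IFIT genes, at 0.26 (SE 0.15).

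**Figure D3:**
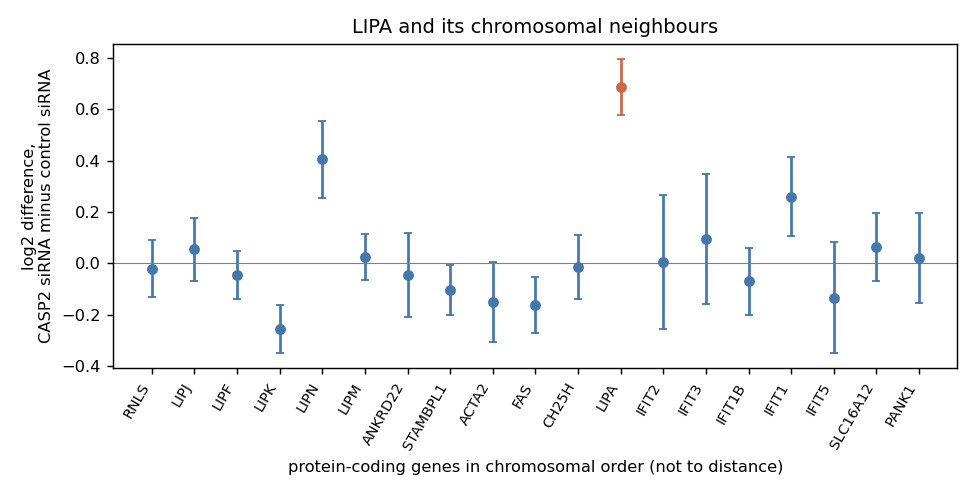
Log2 difference, CASP2 siRNA minus control siRNA, of LIPA and its neighbours in chromosomal order (points), with the limma standard error as bars; spacing does not show distance. LIPA stands at 0.69, the 7 genes on the IFIT side lie between -0.13 and 0.26, and those on the CH25H side between -0.25 and 0.40.

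The probe sets whose pattern over the 4 arrays was most like that of LIPA were found by the Euclidean distance of values taken relative to their own control mean. The 5 nearest were EGF at a distance of 0.20, XCL1 at 0.20, KCTD16 at 0.24, EIF4EBP2 at 0.24 and FAM99A at 0.24. EGF, the epidermal growth factor, had values of 4.51 and 4.62 in control cells and of 5.20 and 5.04 in silenced cells. EIF4EBP2, a repressor of translation, had values of 9.29 and 9.34 against 10.06 and 9.71. Of these 5, EIF4EBP2 alone lay in the brightest band of levels, as LIPA did. None of the lipases or list genes was among the 5.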

How the data were processed

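Total RNA of 4 U87MG samples was measured on whole-transcript Affymetrix arrays (Human Gene ST). The authors applied RMA, and the deposited values are log2 values for 32321 probe sets. RMA equalizes probe distributions between arrays, which removes a shift common to all genes and compresses folds near background. Groups were taken from the sample labels. The p-values measure only the spread between these arrays, taken in part from other probe sets. Array number limits the precision.

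Gene names came from the platform annotation (1 symbol for 19158 probe sets, several for 1388, none for 11775), with 19128 symbols updated by gene ID through RefSeq (GRCh38.p14). Silenced and control arrays were compared with limma 3.58.1 (lmFit, eBayes) in R 4.3.3, in two-sided tests, and p-values were adjusted by Benjamini-Hochberg across the 32321 probe sets; residual and prior degrees of freedom were 2 and 2.47. List genes were taken at their brightest probe set. Genes named were the lipases, CASP2, the 3 list genes with the smallest p in each list, the 5 probe sets nearest LIPA, and others chosen after their values were seen. The lipases and lists were chosen with earlier results of these data known. Alternatives were the methods' t-test, trend and robust options, quantile normalization, array weights, linear means, a replicate block, the mean of a gene's probe sets, restriction to 1-symbol or brighter probe sets, each array left out and, chosen after seeing the data, cyclic loess. Promoters are the 250 bases before each RefSeq start. No data of other assays were used here.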

Additional observations from a re-analysis of the deposited data

How the results depend on the processing

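The log2 difference of LIPA lay between 0.62 and 0.76 with each array left out in turn. LIPG ranged from 0.28 to 0.52, LIPE from 0.060 to 0.31 and MGLL from 0.0072 to 0.18 in the same way. Where the silenced arrays lie above the controls, as for LIPA, LIPG and LIPE, leaving out an array cannot turn the sign, and in this balanced design the replicate block and array weights left each difference as it was, so these say nothing about stability. Quantile normalization, loess and linear means gave LIPA at 0.71, 0.71 and 0.69 and LIPG at 0.38, 0.37 and 0.41. Leaving out an array turned the sign of LPL, NCEH1 and CES1 under 2 settings each and of PNPLA2 under 1. The count past the adjusted threshold was 0 in each alternative that refitted the table: the methods' t-test, trend and robust options, quantile and loess normalization, the replicate block, the restricted probe sets and each array left out. The counts at an unadjusted p under 0.05 moved more. The methods' t-test gave 100 probe sets in place of 979, with 35 higher and 37 lower past the fold and p thresholds in place of 107 and 117, and 0 list genes higher and 0 lower in place of 4 and 1. Probe sets with 1 symbol alone gave 609, 20 and 27, the fewer probe sets tested being part of the cause. The deviations of same-numbered arrays correlated at 0.0198 over probe sets. With 2 arrays in each group this is a single correlation, which cannot settle whether replicate numbers pair the arrays. With the replicate block the counts were 965, 142 and 160, with 2 list genes higher and 0 lower, and LIPA differed by 0.69. Loess gave 2 list genes lower, and leaving out dim probe sets 0. Leaving out single arrays gave 354 (without control siRNA replicate 2) to 6257 (without CASP2 siRNA replicate 1) at the unadjusted p, 118 to 414 higher (most without CASP2 siRNA replicate 2) and 157 to 592 lower (most without CASP2 siRNA replicate 1) past both thresholds, 0 to 8 list genes higher (0 without control siRNA replicate 2, 8 without CASP2 siRNA replicate 1) and 0 to 2 lower. A lone array left in a group was assumed to vary like the other group.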
